A study of Mus musculus with 3 samples.

Results

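The tissue inhibitors of metalloproteinases *Timp1*, *Timp2*, *Timp3* and *Timp4*, together with *Reck*, a membrane-anchored inhibitor of the same enzymes, were examined in Colon26, a mouse colon cancer line, and in 2 sublines derived from it, LuM1 and NM11. The members were taken by name, as 5 of the 22911 genes that the array probes could be matched to, and were read on 8 probes, 1 for *Timp1*, 2 each for *Timp2*, *Timp3* and *Timp4*, and 1 for *Reck*. The family was chosen on the ratios of *Timp3* in LuM1 cells over both other lines, which were among the largest differences in earlier results of these data, so the values of *Timp3* are a description and were not tested. All 3 lines are of BALB/c mouse origin and female, and were grown untreated in serum-containing medium for 3 days. LuM1 is a rapidly metastatic subline, and Colon26 and NM11 are slowly metastatic. Labelled copies of 0.1 µg of total RNA from each line were hybridized to 1 single-colour array per line, and the 3 arrays lay on 1 slide. Each line was thus 1 sample with no replicate, each subline stands for itself as a model, and no test was possible. The error given with each value is that of the scanner software, about 10.0% of a bright signal, and covers neither culture nor labelling.

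TIMPs are small secreted proteins that bind the active site of matrix metalloproteinases (MMPs), the enzymes that cleave collagens and other matrix proteins, and block it. TIMP-1 and TIMP-2 stay soluble, whereas TIMP-3 binds to the extracellular matrix and also inhibits the sheddase ADAM17 and the aggrecanases ADAMTS4 and ADAMTS5. TIMP-2 is in addition a partner of the membrane enzyme MT1-MMP in the activation of pro-MMP-2. RECK sits on the cell surface through a lipid anchor, and loss of TIMP-3 and of RECK has been described in many carcinomas.

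Signals were scaled so that the 75th percentile of each array was equal, and are given on that linear scale in arbitrary units. A probe was read as measured where the scanner software marked it as well above background, which held for between 49.9% and 53.8% of probes on an array, and no spot was saturated. The lowest such signal was 26.4 in Colon26, 20.1 in LuM1 and 19.6 in NM11. Of the 5 members, 4 were well above background on all 3 arrays by their brightest probe, and *Timp4* on none. Signals of different probes depend on their sequence, so no level of a gene is set against that of another gene here.

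*Timp3* was present at a high signal in Colon26 and NM11 cells and was close to background in LuM1 cells. The brighter of its probes, A_51_P463765, read 32606 ± 3261 in Colon26, 32.8 ± 5.61 in LuM1 and 29742 ± 2974 in NM11. The LuM1 signal was 0.101% of that in Colon26 and 0.110% of that in NM11. Before any correction, the spot had a brightness of 77 over a local background of 28 on the LuM1 array, where spots not significantly above background had a median brightness of 44. On the Colon26 and NM11 arrays the same spot had a brightness of 30458 and 26752.5. The LuM1 signal was therefore above background, but by only 1.63 times the lowest signal that counted as measured there.

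The second *Timp3* probe, A_55_P2865447, gave the same order. It read 17488 ± 1749 in Colon26, 19.8 ± 5.08 in LuM1 and 16931 ± 1693 in NM11. In LuM1 it was not well above background, so that only a bound could be given. By the first probe *Timp3* was 993-fold lower in LuM1 cells than in Colon26 cells (log2 ratio -9.96 ± 0.29) and 906-fold lower than in NM11 cells (-9.82 ± 0.29). By the second probe it was at least 869-fold lower than in Colon26 and at least 841-fold lower than in NM11. The slowly metastatic lines did not differ beyond the scanner error, with a log2 ratio of NM11 over Colon26 of -0.13 ± 0.20 by the first probe and -0.05 ± 0.20 by the second. Both probes thus separated LuM1 from the other lines, and neither separated NM11 from its parent.

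**Figure D1:**
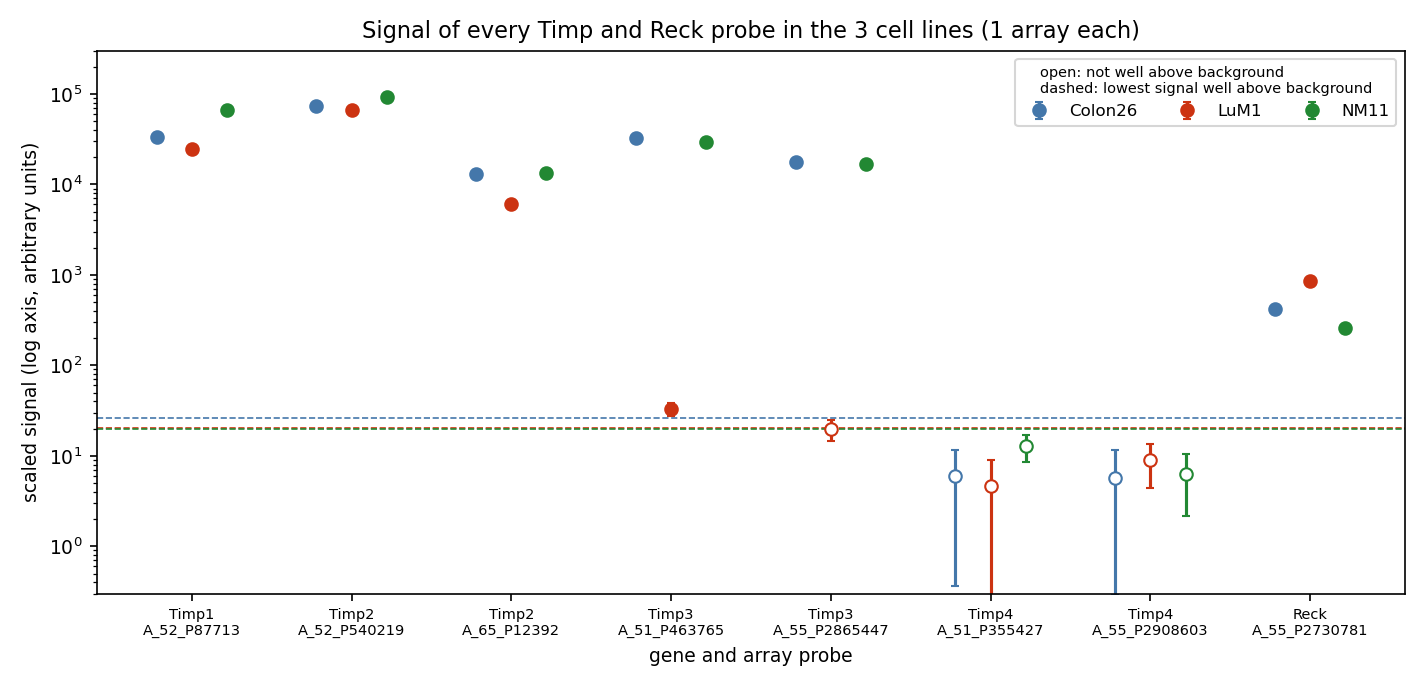
Scaled signal (log axis, arbitrary units) of each of the 8 probes in Colon26, LuM1 and NM11, 1 array per line. Bars are the scanner error (some are smaller than the points or run off the lower end of the axis), open points are not well above background and dashed lines mark the lowest signal well above background on each array. Both *Timp3* probes drop to the background line in LuM1, the *Timp4* probes lie under it in all 3 lines, and the *Reck* probe is highest in LuM1.

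Among all genes with a ratio, that of *Timp3* was the 2nd lowest of 14182 in LuM1 over Colon26 and the 2nd lowest of 14411 in LuM1 over NM11. Only *Col1a2* lay below it in both. In NM11 over Colon26 it lay inside the bulk of genes, at rank 5691 from the lowest of 13832.

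The sequence around the start of *Timp3* is shown because this is the member whose signal was near background in 1 line, and that of *Reck* because it is the member that was highest in LuM1 cells. Both are from RefSeq on GRCm38.p6, 300 bases on the gene's strand with 250 before and 50 after the annotated start, and capitals mark CpG, the dinucleotide that carries DNA methylation in mammals. The array holds no measurement of methylation or of binding to these sequences.
Timp3, chr10:86300162-86300461, plus strand: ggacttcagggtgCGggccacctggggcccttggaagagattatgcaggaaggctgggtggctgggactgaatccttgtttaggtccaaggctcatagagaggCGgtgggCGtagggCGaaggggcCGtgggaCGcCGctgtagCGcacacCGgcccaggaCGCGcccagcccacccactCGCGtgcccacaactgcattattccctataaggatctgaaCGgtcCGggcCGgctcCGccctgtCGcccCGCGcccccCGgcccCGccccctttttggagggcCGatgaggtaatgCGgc
Reck, chr4:43875280-43875579, plus strand: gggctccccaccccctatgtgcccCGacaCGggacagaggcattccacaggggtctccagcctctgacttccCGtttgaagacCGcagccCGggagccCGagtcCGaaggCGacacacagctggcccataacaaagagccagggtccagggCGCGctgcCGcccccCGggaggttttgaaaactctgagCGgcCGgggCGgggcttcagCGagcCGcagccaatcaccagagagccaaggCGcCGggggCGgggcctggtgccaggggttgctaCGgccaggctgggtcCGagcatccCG
The *Timp3* window holds 24 CpG and that of *Reck* 23, against a median of 7 over 32851 promoter windows of the same length. For *Timp3* 80.0% of windows held fewer, and for *Reck* 78.5%. The window of *Timp2* holds 25, that of *Timp1* 8 and that of *Timp4* 2. High CpG content was shared by *Timp3*, *Timp2* and *Reck*, and any link between it and their ratios was not tested.

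*Timp1* was highest in NM11 cells. Its probe A_52_P87713 read 33767 ± 3377 in Colon26, 24826 ± 2483 in LuM1 and 67183 ± 6718 in NM11. NM11 was 2.71-fold above LuM1 (log2 LuM1 over NM11 -1.44 ± 0.20) and 1.99-fold above Colon26 (log2 NM11 over Colon26 0.99 ± 0.20), just under 2-fold. LuM1 lay below Colon26 by a log2 ratio of -0.44 ± 0.20, a difference beyond the scanner error that became 0.00 in the authors' processed values, which place LuM1 higher as a whole. The order of LuM1 and Colon26 for this gene therefore depended on the scaling, and that of NM11 above both lines did not.

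The *Timp1* promoter window is shown with capitals at sequence motifs, because it was the only member window with either of the 2 AP-1 sequences searched. The letters searched on both strands were TGACTCA, the AP-1 consensus, TGAGTAA, a variant known from Timp1, and GGGCGG, the GC box bound by Sp1 factors, which includes a CpG.
Timp1, chrX:20869916-20870215, plus strand, GRCm38.p6: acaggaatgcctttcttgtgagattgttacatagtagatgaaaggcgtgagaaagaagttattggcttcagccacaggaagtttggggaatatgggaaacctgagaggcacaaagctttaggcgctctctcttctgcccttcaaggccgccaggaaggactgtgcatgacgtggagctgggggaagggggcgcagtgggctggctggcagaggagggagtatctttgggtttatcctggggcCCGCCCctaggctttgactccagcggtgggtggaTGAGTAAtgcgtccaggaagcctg
It holds TGAGTAA 1 time, within the 50 bases after the annotated start, and the GC box 1 time (as CCGCCC). Of all windows, 2.68% held TGAGTAA, 5.2% TGACTCA and 35.7% the GC box. None of the 5 member windows held TGACTCA, and the GC box was found 2 times in *Timp3*, 1 time in *Timp2*, 3 times in *Reck* and not in *Timp4*. These matches describe letters only.

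*Timp2* was bright in all 3 lines, and its probes gave different ratios. The brighter probe, A_52_P540219, read 72778 ± 7278 in Colon26, 66181 ± 6618 in LuM1 and 92304 ± 9230 in NM11. By it LuM1 and Colon26 did not differ beyond the scanner error (log2 ratio -0.14 ± 0.20), and LuM1 lay below NM11 (-0.48 ± 0.20). NM11 lay above Colon26 by this probe (0.34 ± 0.20). The signs of the LuM1 ratios turned under other scalings, to 0.31 over Colon26 in the authors' processed values and to 0.11 over NM11 when scaled to *Hprt*. That of NM11 over Colon26 turned to -0.15 when scaled to *Hprt*. The dimmer probe, A_65_P12392, read 13180 ± 1318 in Colon26, 6117 ± 612 in LuM1 and 13437 ± 1344 in NM11. By it *Timp2* was 2.15-fold lower in LuM1 than in Colon26 and 2.20-fold lower than in NM11, whereas NM11 and Colon26 were alike within the error (0.03 ± 0.20). The probes differed from each other by 0.97 ± 0.29 in the log2 ratio of LuM1 over Colon26 and by 0.66 ± 0.29 in that of LuM1 over NM11. In NM11 over Colon26 they differed by 0.32 ± 0.29, and scaling cancels in all these differences. The cause of the disagreement was not tested.

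*Timp4*, whose product is known mainly from heart and brain, was not well above background in any line. Its probe A_51_P355427 read 5.98 ± 5.62 in Colon26, 4.64 ± 4.36 in LuM1 and 12.8 ± 4.28 in NM11. The other, A_55_P2908603, read 5.74 ± 5.75, 8.91 ± 4.45 and 6.31 ± 4.16 in the same order. No ratio was taken for it.

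*Reck* was the member that was highest in LuM1. Its probe A_55_P2730781 read 414 ± 41.8 in Colon26, 847 ± 84.8 in LuM1 and 256 ± 26.0 in NM11. LuM1 cells were thus 2.04-fold above Colon26 cells (log2 1.03 ± 0.21) and 3.31-fold above NM11 cells (1.73 ± 0.21). NM11 lay below Colon26 by a log2 ratio of -0.69 ± 0.21. All 3 lines differed beyond the scanner error, and the order LuM1, Colon26, NM11 held under every scaling tried.

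**Figure D2:**
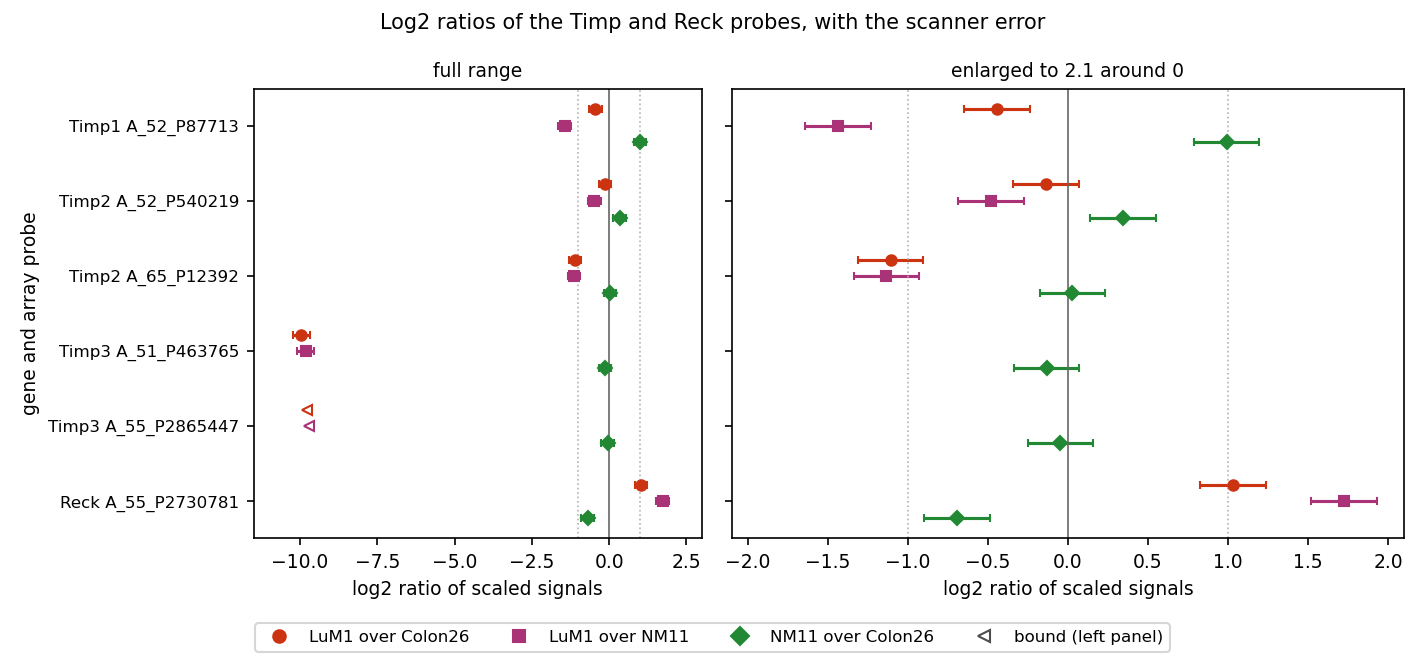
Log2 ratio of scaled signals for the 6 probes with a ratio, as LuM1 over Colon26, LuM1 over NM11 and NM11 over Colon26, over the full range (left) and enlarged around 0 (right). Bars are the scanner error of the ratio, open triangles are upper bounds and dotted lines mark a 2-fold difference. The *Timp3* probes lie near -10 for LuM1 over either line and near 0 for NM11 over Colon26, the *Timp2* probes differ from each other, and *Reck* lies above 0 for LuM1.

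Counted by the brightest probe at 2-fold, 1 of 5 members was higher in LuM1 than in Colon26 (*Reck*), beside 12.9% of all genes measured in either line. In the same comparison 1 was lower (*Timp3*), beside 11.7%. Against NM11, 1 was higher in LuM1 (*Reck*), beside 11.1% of genes, and 2 were lower (*Timp1* and *Timp3*), beside 8.5%. The call of *Reck* over Colon26 was lost with normexp background correction (log2 0.80), and that of *Timp1* against NM11 when scaled to *Hprt* (-0.85). Between NM11 and Colon26, 0 members were higher, beside 8.17% of genes, and 0 were lower, beside 7.74%. With 5 members chosen after earlier results were known, nothing is read from these shares. The median log2 ratio of the 4 measured members was -0.29 in LuM1 over Colon26, -0.96 in LuM1 over NM11 and 0.11 in NM11 over Colon26, where that of all genes measured in both lines was -0.13, -0.11 and -0.02. The family did not move as a group, since its members took different directions.

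The split of all genes between higher and lower depended on the scaling. It was 1856 higher and 1679 lower in LuM1 than in Colon26, but 3038 and 874 in the authors' processed values. Against NM11 it was 1599 and 1225, but 3581 and 498 when scaled to *Hprt* and 2748 and 629 in the authors' values. For NM11 over Colon26 it was 1153 and 1092, but 686 and 2727 when scaled to *Hprt*. Those scalings raised the median log2 ratio of LuM1 by 0.45 over Colon26 (authors' values) and by 0.59 over NM11 (*Hprt*). Scaling to *Hprt* changed that of NM11 over Colon26 by -0.49, so ratios near 0 could change sign, among them those of *Timp2*.

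**Figure D3:**
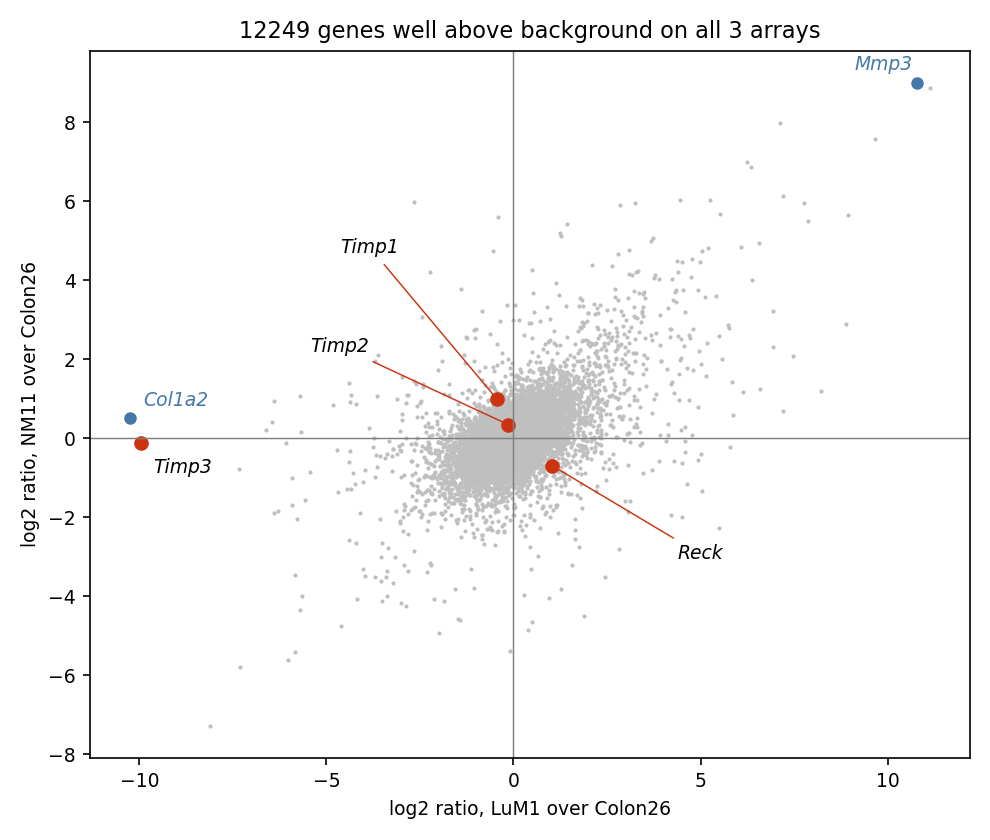
Log2 ratio of NM11 over Colon26 (vertical axis) against that of LuM1 over Colon26 (horizontal axis) for 12249 genes well above background on all 3 arrays. *Timp3* lies at the far left beside *Col1a2* and near 0 on the vertical axis, the other members lie within the cloud, and *Mmp3* lies at the upper right.

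The genes whose pattern over the 3 lines was nearest to each member were taken by the distance between 2 log2 ratios, LuM1 over Colon26 and NM11 over Colon26, among those 12249 genes. For *Timp3* the nearest was *Col1a2*, a chain of type I collagen, at a distance of 0.70. It read 59896 ± 5990 in Colon26, 49.6 ± 6.89 in LuM1 and 85275 ± 8527 in NM11, and was 1207-fold lower in LuM1 than in Colon26. The next were *Pmepa1* (2.70), a target and inhibitor of TGF-β signalling, *Lgals7* (3.35), a galectin, *Thbs1* (3.54), the matrix protein thrombospondin-1, and *Fgf7* (3.71), a growth factor of mesenchymal cells. Among the 12249 genes none lay within 0.5 of *Timp3*, whereas 194 lay within 0.5 of *Timp1*, 138 of *Reck* and 3411 of *Timp2*. Genes not well above background in LuM1 were left out, so this count does not show how isolated *Timp3* is. The second *Timp3* probe would itself have been left out. The nearest to *Timp1* were *Spata5* (0.08), *Dcakd* (0.09) and *Ebp* (0.11), and to *Reck* were *Cand2* (0.08), *Lyzl6* (0.09) and *Nupr1l* (0.11). Those nearest to *Timp2* were *Necab3*, *Cc2d1b* and *Krtcap2*, but *Timp2* lies in the densest part of the cloud. With 3 samples, such likeness is a description of position only.

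The enzymes that the TIMPs and RECK inhibit were read from lists chosen for their function. Of 15 secreted MMPs with a named probe, 10 were well above background in some line. In LuM1 8 of them exceeded Colon26 by 2-fold or more, beside 12.9% of all genes, and 5 exceeded NM11, beside 11.1%. By as much, 0 were lower than either, beside 11.7% of all genes against Colon26 and 8.5% against NM11. *Mmp1a*, *Mmp7*, *Mmp12*, *Mmp20* and *Mmp21* were at background in all lines. The median log2 ratio was 3.42 over Colon26, from the 5 measured in both lines, and 0.84 over NM11, from 10. That of all genes measured in both lines was -0.13 and -0.11.

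*Mmp3*, stromelysin-1, read 58.6 ± 8.24 in Colon26, 103171 ± 10317 in LuM1 and 29944 ± 2994 in NM11, with log2 ratios of 10.78 ± 0.25 over Colon26 and 1.78 ± 0.20 over NM11. *Mmp9*, gelatinase B, was bright in LuM1 alone, at 2311 ± 231 against 24.7 ± 4.97 in NM11 and a signal not well above background in Colon26. It was 93.7-fold higher in LuM1 than in NM11 and at least 87.5-fold higher than in Colon26. *Mmp10*, stromelysin-2, read 50.7 ± 7.55 in Colon26, 2708 ± 271 in LuM1 and 369 ± 37.1 in NM11. *Mmp13*, a collagenase, was not well above background in Colon26 and read 6283 ± 628 in LuM1 and 1609 ± 161 in NM11. *Mmp1b* behaved likewise at a lower signal, with 192 ± 19.7 in LuM1 and 77.5 ± 8.73 in NM11, although its second probe was only at least 0.69 (log2) above Colon26. These 5 were the secreted MMPs that were 2-fold higher in LuM1 than in both other lines.

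*Mmp2*, gelatinase A, *Mmp19* and *Mmp8* were higher than in Colon26 in LuM1 and NM11 alike. *Mmp2* was not well above background in Colon26 and read 1512 ± 151 in LuM1 and 1691 ± 169 in NM11. *Mmp19* read 503 ± 50.6, 5397 ± 540 and 4675 ± 467 in Colon26, LuM1 and NM11, and *Mmp8* was dim, at 66.0 ± 7.91 in LuM1 and 58.6 ± 7.17 in NM11. *Mmp11* and *Mmp28* differed by less than 2-fold among the lines.

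Of 6 membrane-type MMPs, 3 were well above background in some line. *Mmp14*, which encodes MT1-MMP, a target of TIMP-2 and RECK, read 399 ± 40.4 in Colon26, 627 ± 62.9 in LuM1 and 386 ± 38.9 in NM11, log2 ratios of 0.65 ± 0.21 and 0.70 ± 0.21 in LuM1. *Mmp16*, or MT3-MMP, was well above background only in LuM1, at 605 ± 60.7, and was at least 22.9-fold higher there than in Colon26 and at least 30.9-fold higher than in NM11, by 1 of its 2 probes. *Mmp17* was dim, at 37.3, 60.9 and 48.1 in Colon26, LuM1 and NM11.

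Among 10 ADAM and ADAMTS genes, listed as targets of TIMPs although ADAM19 may not be inhibited by them, 2 were higher and 2 lower in LuM1 than in both other lines. Over all genes, 12.9% were higher and 11.7% lower than in Colon26, and 11.1% and 8.5% than in NM11. The higher of the 10 were *Adamts4*, an aggrecanase, at 54.6 ± 7.90, 940 ± 94.1 and 185 ± 18.9 in Colon26, LuM1 and NM11, and *Adam19*, not well above background in Colon26 and at 826 ± 82.7 in LuM1 and 266 ± 27.0 in NM11. The lower were *Adam33*, at 778 ± 77.9, 170 ± 17.5 and 604 ± 60.5, and *Adam12*, at 189 ± 19.7, 83.2 ± 9.39 and 443 ± 44.4. *Adam17*, the sheddase that TIMP-3 inhibits, read 532 ± 53.6, 838 ± 84.0 and 523 ± 52.5 by its brighter probe. Its log2 ratio of LuM1 over Colon26 was 0.66 ± 0.20 by that probe but -0.56 by the other, so its direction was not settled, while both gave 0.68 over NM11.

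**Figure D4:**
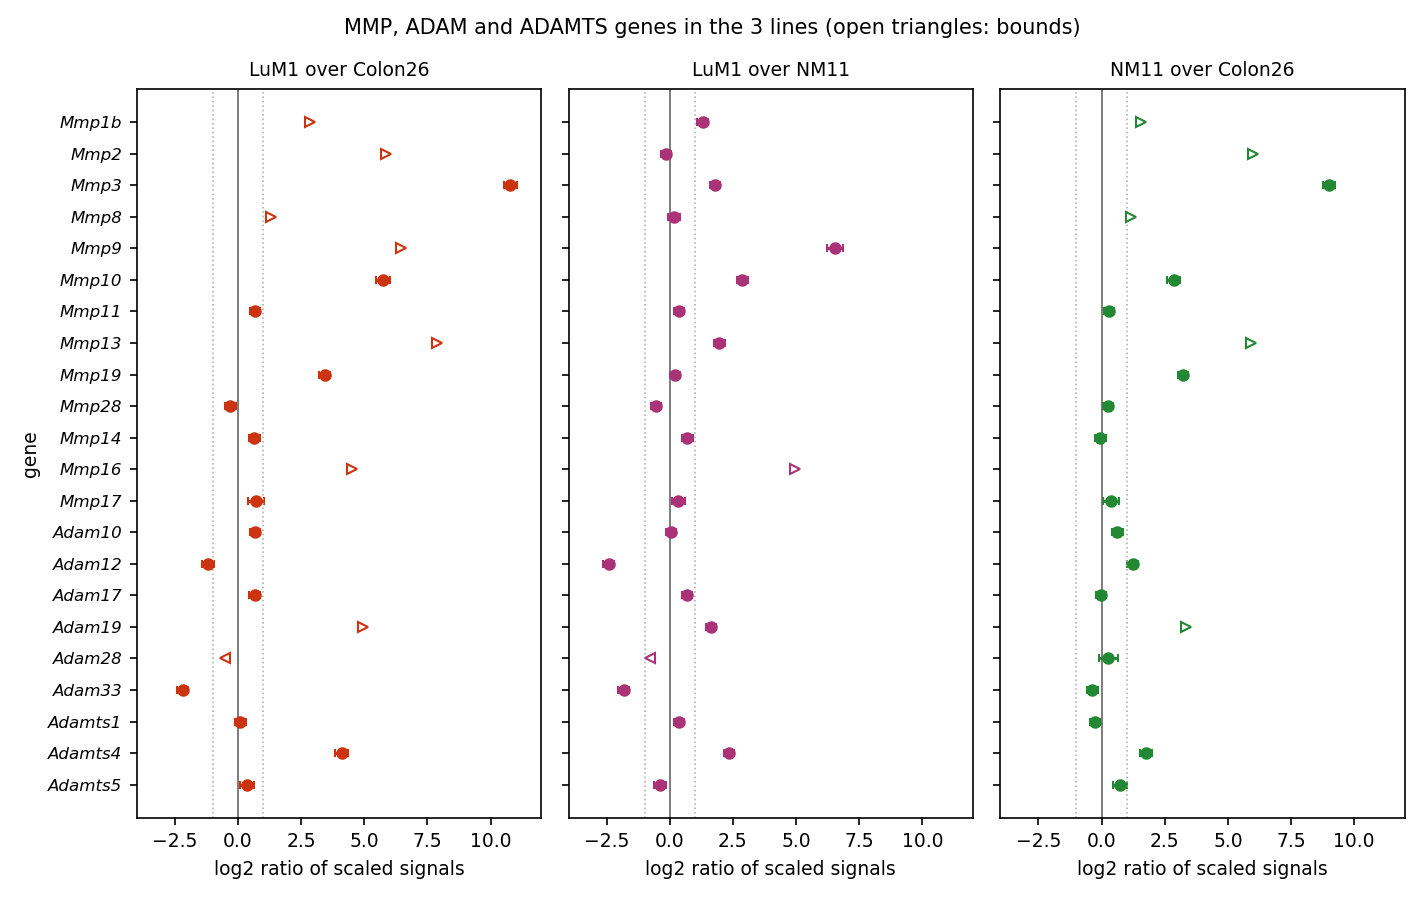
Log2 ratios of scaled signals for the MMP, ADAM and ADAMTS genes that were well above background in some line, by the brightest probe, in the comparisons LuM1 over Colon26, LuM1 over NM11 and NM11 over Colon26. Bars are the scanner error, open triangles are bounds pointing to where the value may lie, and dotted lines mark a 2-fold difference. *Mmp3* has the highest ratio over Colon26 in both sublines, and *Mmp9* stands out in LuM1 over NM11 (6.55).

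The ratio of an enzyme to its inhibitor can be compared between lines without any scaling, because the scaling cancels. The pairs were chosen after these values were known. Relative to *Timp1*, *Mmp3* was higher in LuM1 than in Colon26 by 11.23 ± 0.32 (log2) and than in NM11 by 3.22 ± 0.29. *Mmp9* relative to *Timp1* was higher in LuM1 than in NM11 by 7.99 ± 0.38, and than in Colon26 by at least 6.90. *Mmp14* relative to *Timp2* was higher by 0.79 ± 0.29 and 1.18 ± 0.29 over Colon26 and NM11, by the brighter *Timp2* probe. *Adam17* relative to *Timp3* was higher in LuM1 than in Colon26 by 10.61 ± 0.35, nearly all of which came from *Timp3*, and the same ratio differed by 0.11 ± 0.29 between NM11 and Colon26. These values are by the brighter *Adam17* probe, and the other gave *Adam17* itself a log2 ratio of -1.24 in NM11 over Colon26, against -0.02 by the brighter. For *Reck* the enzymes differed: *Mmp9* relative to *Reck* was higher in LuM1 than in NM11 by 4.82 ± 0.38, and than in Colon26 by at least 5.42. *Mmp14* relative to *Reck* was lower in LuM1, at -1.03 ± 0.29 over NM11 and -0.38 ± 0.29 over Colon26. These are ratios of signals from unlike probes, so only their change between lines has a meaning, and no enzyme activity was measured.

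Proteins to which TIMPs and RECK bind were read in the same way. Of 7 such genes, 5 were well above background, and 0 were 2-fold higher or lower in LuM1 than in either line. Over all genes, 12.9% were higher and 11.7% lower than in Colon26, and 11.1% and 8.5% than in NM11. *Itga3*, an integrin chain, was 2.74-fold lower in NM11 than in Colon26 by its brighter probe (log2 -1.45 ± 0.20) and less than 2-fold lower by the other (-0.84). *Cd63*, a tetraspanin that binds TIMP-1, read 59444 ± 5944 in Colon26, 58542 ± 5854 in LuM1 and 96004 ± 9600 in NM11, highest in the line where *Timp1* was highest. *Adgra2*, the receptor that works with RECK in Wnt7 signalling, read 8943 ± 894, 4639 ± 464 and 8418 ± 842, lowest in the line where *Reck* was highest. *Kdr*, a receptor that TIMP-3 blocks, and *Efemp1*, a binding partner of TIMP-3, were at background in all lines. Of 5 genes of other metallopeptidase inhibitors only *Lxn*, an inhibitor of carboxypeptidases, was measured, at 15461 ± 1546, 7450 ± 745 and 59484 ± 5948. Like *Timp1*, it was highest in NM11, while the order of LuM1 and Colon26 for *Timp1* depended on the scaling.

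*Timp1*, *Timp3* and *Timp4* each lie within an intron of a synapsin gene in the mouse, *Syn1*, *Syn3* and *Syn2*, as known for this family in mammals, and the annotation used here places them inside these genes on chromosomes X, 10 and 6. *Syn1* read 31.6 ± 6.36 in Colon26, 301 ± 30.4 in LuM1 and 181 ± 18.6 in NM11, an order unlike that of *Timp1*. *Syn3* was well above background only in LuM1, the line in which *Timp3* was near background, at 41.6 ± 6.20. *Syn2* too was above background only there, at 32.7 ± 5.88. Both are dim beside the lowest measured signal of 20.1 in LuM1, and each had a ratio by only 1 of its 2 probes. *Timp1* and *Timp3* were highest in other lines than the genes around them, and any link between them was not tested.

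Of 5 cytokines known to raise *Timp1*, 4 were measured. LuM1 exceeded Colon26 by 2-fold or more in each of these 4, beside 12.9% of all genes measured in either line. *Il6* was not well above background in Colon26 and read 4770 ± 477 in LuM1 and 1969 ± 197 in NM11. *Il11* read 276 ± 28.1, 830 ± 83.1 and 348 ± 35 in Colon26, LuM1 and NM11, and *Tgfb1* 317 ± 32.3, 974 ± 97.5 and 448 ± 45.0. *Lif* was 3.56-fold higher than in Colon26 and 1.30-fold higher than in NM11. *Timp1* itself was lowest in LuM1 on this scale and level with Colon26 in the authors' processed values. In NM11, where *Timp1* was highest, *Il6* and *Lif* were at least 2-fold higher than in Colon26. These were 2 of the 4, beside 8.17% of all genes, and the other 2 were within 2-fold. Any link between these cytokines and *Timp1* was not tested.

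The labels call the lines colon adenocarcinoma cells, and their markers were read beside these results. Of 9 colon epithelial markers, 3 were well above background in Colon26, 4 in LuM1 and 3 in NM11, with summed signals of 1164, 462 and 403, and *Cdh1*, *Krt18*, *Krt19*, *Vil1* and *Cdh17* were at background in all lines. *Krt20* read 651 ± 65.4, 54.5 ± 7.03 and 157 ± 16.3 in Colon26, LuM1 and NM11, whereas *Krt8* was highest in LuM1. *Cdx2* was well above background in all 3 lines, at 443 ± 44.7, 232 ± 23.6 and 167 ± 17.2. Of 9 fibroblast and mesenchymal markers, 8, 9 and 9 were measured, and their sum was 241020, 273400 and 298353. Such sums add signals of unlike probes and are weighted to the bright ones, so lists are not compared by them. *Vim*, encoding vimentin, was bright throughout, *Col1a1* and *Col1a2* were lower in LuM1 than in both other lines, and *Pdgfra* and *Dcn* were higher. Of 8 leukocyte markers 5, 6 and 5 were measured, with sums of 7690, 17509 and 6796. *Ptprc* and *Adgre1*, which define leukocytes and macrophages, were at background, while *Cd68* and *Cd14* were higher in LuM1 than in both lines. Of 5 endothelial markers only *Pecam1* was measured, with sums of 74.1, 73.7 and 101. The part of these differences in the results for *Timp3* and the other members was not tested. In RNA from whole cultures, fewer cells that express a gene and less of its RNA per cell cannot be told apart.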

How the data were processed

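RNA of Colon26, LuM1 and NM11 cells was measured on 3 single-colour Agilent mouse arrays, 1 per line. The authors deposited the intensity of each spot and its error from Agilent Feature Extraction 11.5.1.1 (per the labels), background-subtracted and detrended without scaling between arrays, and, per the file headers, other columns that flag with 0 or 1 whether a spot was an outlier, was saturated, or stood significantly or well above background. A second deposited table of processed intensity equals these values times 1 factor per array (0.654, 0.829 and 0.706 for Colon26, LuM1 and NM11), and the paper names no normalization.

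Control spots and outlier spots (137, 74 and 99) were left out, and repeated spots were averaged. Scaling used the 75th percentile of an array over 59305 spots (581.1, 625.1 and 551.5 as deposited). Of 56605 probes, 58.3% could be named by their RefSeq accession (GRCm38.p6). The array was designed on another build, so no gene coordinates are given, and promoter windows are those of RefSeq on GRCm38.p6. The brightest probe stood for a gene, and every probe of a member is given. Ratios are on the log2 scale. Where 1 line was not well above background the ratio is a bound, and where neither was, none was given. Errors of ratios combine the scanner errors of both signals. The number of arrays limits the precision. With 1 array per line no test was run, and 2-fold, bounds included, was the threshold for counts.

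The members, gene lists and alternatives were chosen with earlier results of these data known, and the pairs of enzyme and inhibitor after their values were seen. The genes named were the members, all MMPs well above background, the genes of each list at least 2-fold different in LuM1 from both lines in 1 direction, and the 3 genes (5 for *Timp3*) nearest in pattern to each member. A few others of the lists are named for their known link to a member. A comparison of the proteins was planned and not run, since no protein table was used here. Alternatives were other scalings (none, median of measured probes, *Hprt*, quantile, and, added after seeing the data, E1A spike-in controls and the percentile over distinct probes), normexp with an offset of 50 on median brightness, the table of processed values, a looser detection rule and none, outliers kept, the mean over probes, the probe brightest in LuM1, and 4-fold. Python 3.11.15 with numpy 2.4.6, pandas 2.3.3 and matplotlib 3.10.9 and R 4.3.3 with limma 3.58.1 were used.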

Additional observations from a re-analysis of the deposited data

How the results depend on the processing

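The 12 log2 ratios of the members were recomputed under 14 alternatives, and all of these but the 4-fold threshold gave values, 156 in total. Of these, 122 moved by less than the scanner error, 34 by more, and 0 turned the direction of a ratio past 2-fold. The 122 include many that had no room to move. Both looser detection rules, outliers kept and the probe brightest in LuM1 left all 12 ratios unchanged. The mean over probes left those of *Timp1* and *Reck* unchanged, since each has 1 probe. *Timp3* ranged from -9.99 to -8.31 in LuM1 over Colon26 and from -9.89 to -8.19 over NM11, the smallest sizes with the normexp correction, whose offset compresses dim signals. *Reck* ranged from 0.80 to 1.48 and from 1.45 to 2.32. *Timp1* ranged from -0.46 to 0.00 over Colon26 and from -1.48 to -0.85 over NM11, and *Timp2* from -0.62 to 0.31 and from -0.81 to 0.11. In NM11 over Colon26 the ranges were 0.50 to 1.03 for *Timp1*, -0.15 to 0.41 for *Timp2*, -0.62 to -0.09 for *Timp3* and -1.18 to -0.64 for *Reck*.

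The count of members higher in LuM1 than in Colon26 became 0 with normexp and at 4-fold, and that of members higher than in NM11 became 0 at 4-fold. The count lower in LuM1 than in NM11 became 1 when scaled to *Hprt* and at 4-fold, and 3 with either looser detection rule, which admits the dim *Timp4*. *Timp1*, just under 2-fold in NM11 over Colon26, made the count higher there 1 with scaling to the median of measured probes, quantile normalization, normexp, the authors' processed values and the percentile over distinct probes. With either looser detection rule the count higher there was also 1, from *Timp4* at signals near background. The count lower there became 1, *Reck*, when scaled to *Hprt* and to the E1A spike-in controls.

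Of all named genes, the number higher in LuM1 than in Colon26 became 3038 in the authors' values and 848 at 4-fold, and the number lower 874 and 538, and 2716 with either looser detection rule. Higher in LuM1 than in NM11 were 3581 when scaled to *Hprt*, 1005 with normexp, 2748 in the authors' values and 657 at 4-fold. Lower were 498, 629 and 352 with *Hprt*, the authors' values and 4-fold, 1843 with either looser rule and 704 with E1A. Higher in NM11 than in Colon26 were 686 with *Hprt*, 1810 and 1811 with the looser rule and with none, and 469 at 4-fold. Lower were 2727 with *Hprt*, 628 with normexp, 2188 with either looser rule, 394 at 4-fold and 1971 with E1A. For scalings the shift of the median is by construction, and other causes were not tested. Signal over background limits *Timp3* in LuM1 and *Timp4* throughout. No paired analysis was possible because each line has 1 array.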
